A study of Sus scrofa with 6 samples.

Results

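In the skin of Bama pigs, 23 of 14900 measured mRNAs (0.154%) were below 0.5 FPKM in all 3 samples of white skin and at or above 1 FPKM in all 3 samples of black skin. FPKM is a level corrected for the length of the transcript and for the number of mapped fragments of the sample. Both limits were met by 31 mRNAs, of which 8 with a known place in body patterning or pigment production were left out by name, namely HOXA10, HOXA11, HOXC10, HOXD3, PMEL, TYRP1, MLANA and MYRIP. Of the 23 mRNAs that remained, 19 had a gene symbol and 4 were known by identifier only. These mRNAs were chosen by their FPKM in these same 6 samples, so their difference between the skins is a description and carries no test here. The same limits with the skins exchanged were met by 21 mRNAs.

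The samples came from 3 unrelated female Bama pigs, adults of 2 years, a Chinese breed with a black head and rump and a white belt. Each pig gave a piece of its white back and a piece of its black buttock, cut to a depth of 8 mm, which gave 3 samples per skin, with replicates 1, 2 and 3 of both skins from pigs 1, 2 and 3. Poly(A) RNA of the whole skin was sequenced. Skin color and body site differed together in every pig and cannot be told apart. Such bulk samples hold epidermis, hair follicles, dermis, vessels, nerves, fat and muscle, and fewer cells of a type and less RNA per cell cannot be told apart in them.

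Whole skin mixes cells of many kinds, and an mRNA made by few of them is low in the whole. Some of the 23 mRNAs code for proteins that cells use to read or send signals. Bone morphogenetic proteins (BMPs) pattern the skin and time the growth of hair. Sprouty proteins damp growth factor signalling through Ras and ERK, Robo receptors read Slit proteins in the guidance of axons and vessels, and homeodomain factors carry positional identity.

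The 23 mRNAs were low in white skin rather than absent. Their mean in white skin ran from 0 to 0.436 FPKM with a median of 0.333, and 11 of them were above 0.25 FPKM in all 3 white samples. A single one, ENSSSCG00000035144, was listed at 0 in all 3 white samples. In black skin they were also among the lower expressed mRNAs, with means from 1.26 to 5.65 FPKM and a median of 1.76, against a median of 6.45 over all mRNAs. The mean was under 2 FPKM for 18 of the 23, and 53.5% of all mRNAs were above the highest of them. For the 22 with a value above 0 in white skin, the mean in black skin was 3.30 to 29.5 times that in white skin, with a median of 5.32. This ratio was under 5 for 9 mRNAs, between 5 and 10 for 10 and at or above 10 for 3, with ENSSSCG00000034760 and LHX6 among them.

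**Figure D1:**
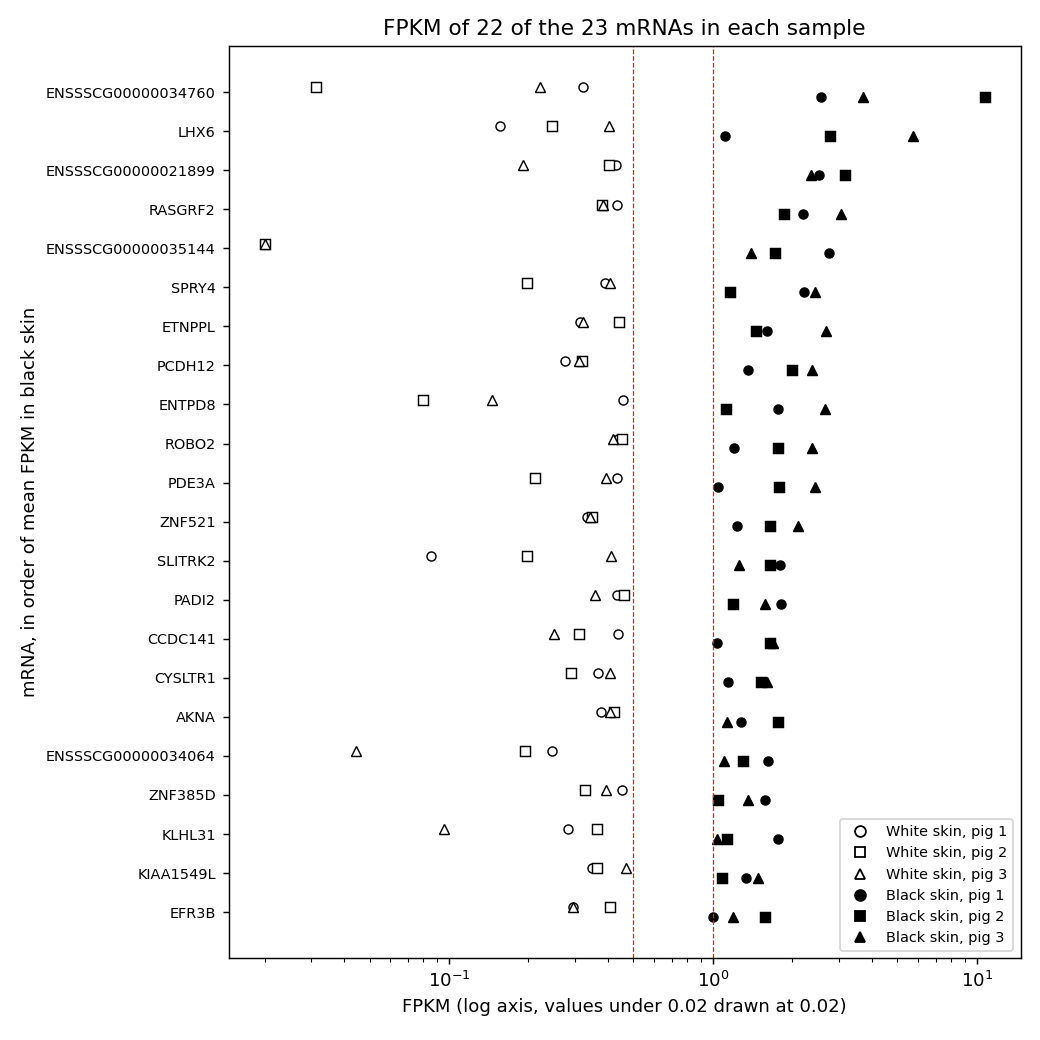
FPKM of 22 of the 23 mRNAs (log axis) in the 3 white (open symbols) and 3 black (filled symbols) skin samples, with the shape giving the pig and the dashed lines the limits of 0.5 and 1 FPKM. The mRNAs are in order of their mean in black skin, and most white values lie between 0.2 and the limit while most black values lie between 1 and 3.

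The limits fell within a continuous range of values. The highest white values inside the limit were 0.467 FPKM for KIAA1549L and 0.462 for PADI2, and just outside it stood KHDRBS3 at 0.503 and EBF4 at 0.509. The lowest black values inside the other limit were 1.00 FPKM for EFR3B and 1.04 for CCDC141, and just outside it stood MKX at 0.995 and TBXA2R at 0.994. Of the 995 mRNAs below 0.5 FPKM in all white samples, 634 stayed below 1 FPKM in all black samples too and 960 below 5. The deposited table holds only mRNAs above 0.5 FPKM in at least 1 sample, so each of the 995 was above 0.5 FPKM in some black sample by that filter.

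**Figure D2:**
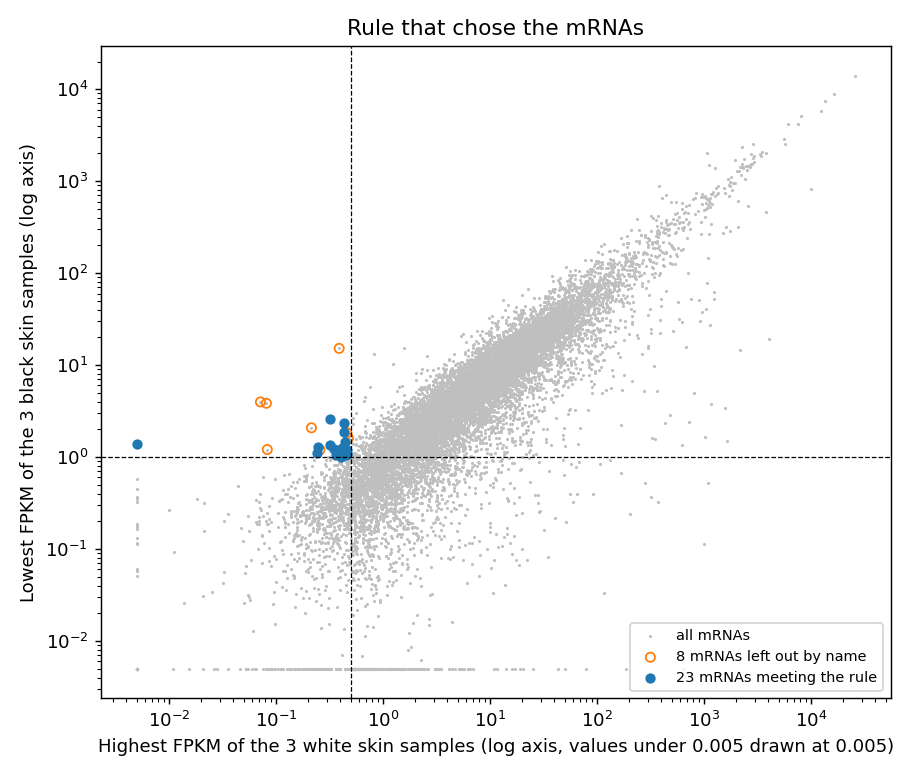
Each mRNA by its highest FPKM of the 3 white samples (horizontal, log axis) and its lowest FPKM of the 3 black samples (vertical, log axis), with dashed lines at the limits. The 23 mRNAs (filled) sit close to the corner of the limits, and the 8 left out by name (open circles) include those farthest above it.

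On the log2(FPKM + 0.5) scale, white minus black skin, the median over the 23 mRNAs was -1.46, with a range of -2.95 to -1.01, and over all 14900 mRNAs it was -0.31. This scale understates the change of low mRNAs. In a limma fit over all mRNAs with Benjamini-Hochberg adjustment, an adjusted p below 0.05 and a log2 fold change above 1 in size were passed by 19 of the 23. Over all mRNAs 3.62% passed lower in white skin, and all white values were below all black values in 25.7% and above them in 9.62%. With the pig as a block, 19 of the 23 passed as well, with 6.42% of all mRNAs passing lower in white skin. The limits used this same contrast, so nothing is read from these shares. The median of all mRNAs moved to -0.13 with upper-quartile scaling and to -0.03 with quantile normalization. The share of calls that were lower in white skin moved with it, from 58.0% of 930 to 34.5% of 852 and 31.0% of 693. All 23 log2 fold changes stayed negative under both scalings, with medians of -1.33 and -1.08. The limits had fixed their sign before scaling, so nothing is read from it.

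Genes of the BMP pathway outside the 23 mRNAs were also compared. Among 14 measured BMP ligands and antagonists, 6 passed both thresholds, all lower in white skin, and the median log2 fold change of the 14 was -1.41. They were the ligands BMP2, BMP4 and BMP6, the antagonists CHRDL1 and FST (follistatin), and BMPER, which binds BMPs outside the cell. The opposite sign occurred too, as for the antagonist SOSTDC1 at 0.60 (limma adjusted p = 0.224). BMP2 had levels of 0.826, 0.603 and 1.05 FPKM in the white skin of pigs 1, 2 and 3, the order used for all values below, and of 4.02, 2.40 and 7.09 FPKM in their black skin (log2 fold change -1.82, SE 0.39, limma adjusted p = 0.0368). FST was steady within white skin, at 10.3, 9.67 and 10.1 FPKM, against 25.9, 37.3 and 22.7 FPKM in black skin (log2 fold change -1.44, SE 0.24, limma adjusted p = 0.0217). Among 16 BMP receptors, SMADs and targets, 4 passed, all lower in white skin, with a median of -0.50. These were the inhibitory SMADs SMAD6 and SMAD7 and the BMP targets ID2 and ID3. The targets ID1 and ID4 did not pass, with log2 fold changes of -0.30 and -0.89 (limma adjusted p = 0.567 and 0.0973). The receptors BMPR1A, BMPR1B and BMPR2 had log2 fold changes of -0.16, -0.24 and -0.39 and did not pass either. ID3 was at 51.0, 32.1 and 40.1 FPKM in white and 118, 132 and 183 FPKM in black skin (log2 fold change -1.80, SE 0.26, limma adjusted p = 0.0149). Of these 10 calls, CHRDL1, FST, ID2 and ID3 also passed under both scalings. ID3 lost its call only without white skin replicate 2 (limma adjusted p = 0.0700), and each of the other 9 lost it in at least 4 of the 6 fits that left out 1 sample, always including those without white skin replicates 2 and 3. The ligand BMP7 and the follistatin-like gene FSTL1 passed in addition once the pig was a block, lower in white skin (limma adjusted p = 0.0335 and 0.0422).

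SPRY4, a Sprouty protein induced by growth factor signalling that in turn inhibits it, stood at 0.391, 0.198 and 0.409 FPKM in white and 2.22, 1.16 and 2.44 FPKM in black skin. The ratio of black to white was nearly the same in the 3 pigs, 5.68, 5.87 and 5.96, although pig 2 was lowest in both skins. Among its paralogs, SPRY1 was at 0.531, 2.65 and 4.71 FPKM in white and 10.1, 10.7 and 18.4 FPKM in black skin (log2 fold change -2.35, SE 0.57, limma adjusted p = 0.0492). SPRY2 had a log2 fold change of -0.91 (limma adjusted p = 0.179). SPRY3 had the opposite sign, 0.99, with a limma adjusted p of 0.133, so the family did not share a sign. Of 15 other genes listed around Sprouty proteins and ERK feedback, 3 passed, all lower in white skin, with a median of -1.06. Beside SPRY1 these were ETV1 and ETV5, transcription factors that ERK signalling induces. ETV1 alone passed with upper-quartile scaling, none of the 3 passed with quantile normalization, and none passed in any fit that left out 1 sample. EGR1 and SPSB1 passed only once the pig was a block, lower in white skin (limma adjusted p = 0.0437 and 0.0470). SPSB1 was in the list but is not a Sprouty protein.

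LHX6, a LIM homeodomain factor known from the migration of cortical interneurons and from the jaw, stood at 0.156, 0.245 and 0.404 FPKM in white and 1.11, 2.78 and 5.71 FPKM in black skin. Pig 3 was highest and pig 1 lowest in both skins. The black values spread 5.16-fold, the widest spread of the 23 mRNAs, and the ratio within pigs was 7.11, 11.4 and 14.1. Of 5 other LIM homeobox factors and cofactors, none passed with limma at an adjusted p below 0.05, and their median log2 fold change was -0.61. Of 24 positional transcription factors outside the HOX clusters, SHOX2 alone passed, at 2.24, 1.09 and 1.73 FPKM in white and 3.89, 5.03 and 8.10 FPKM in black skin (log2 fold change -1.48, SE 0.35, limma adjusted p = 0.0476). The call of SHOX2 was lost under both scalings and in all 6 fits that left out 1 sample.

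ZNF521, a zinc finger cofactor that inhibits the transcription factor EBF1, was the most even in white skin of the 22 with a value there, at 0.333, 0.348 and 0.343 FPKM, and stood at 1.23, 1.64 and 2.1 FPKM in black skin. Its paralog ZNF423 was at 0.805, 0.802 and 0.811 FPKM in white and 1.47, 1.69 and 1.57 FPKM in black skin (log2 fold change -0.67, limma adjusted p = 0.128). EBF1 itself had a log2 fold change of -1.03 (limma adjusted p = 0.128). ZNF385D, a zinc finger protein of another family, was at 0.451, 0.327 and 0.394 FPKM in white and 1.57, 1.05 and 1.36 FPKM in black skin, a ratio of 3.40. Among its paralogs, ZNF385A passed, at 1.90, 1.02 and 1.60 FPKM in white and 8.05, 4.92 and 4.53 FPKM in black skin (log2 fold change -1.64, SE 0.32, limma adjusted p = 0.0305). ZNF385A was the single call among the 7 genes listed with ZNF521 and ZNF385D, whose median was -0.80. That list holds EBF1, EBF2 and EBF3 beside the paralogs. The call of ZNF385A depended on the processing. It was lost with quantile normalization and in all 6 fits that left out 1 sample. AKNA, an AT-hook protein, was at 0.376, 0.422 and 0.406 FPKM in white and 1.28, 1.76 and 1.13 FPKM in black skin.

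ROBO2, SLITRK2 and PCDH12 code for proteins of guidance, adhesion and cell contact. ROBO2, a receptor for Slit proteins, was at 0.438, 0.453 and 0.417 FPKM in white and 1.20, 1.77 and 2.38 FPKM in black skin. SLITRK2, a synaptic adhesion protein with leucine-rich repeats, was at 0.0858, 0.197 and 0.411 FPKM in white and 1.79, 1.64 and 1.26 FPKM in black skin. Its pigs ran in opposite order in the skins, so the ratio within pigs ran from 20.9 and 8.32 to 3.07 in pigs 1, 2 and 3. PCDH12, a protocadherin of the junctions between endothelial cells, was at 0.275, 0.320 and 0.310 FPKM in white and 1.36, 1.99 and 2.38 FPKM in black skin. CCDC141, a coiled-coil protein linked to the centrosome and to the migration of neurons, was at 0.437, 0.311 and 0.249 FPKM in white and 1.04, 1.64 and 1.69 FPKM in black skin. KIAA1549L, a membrane protein of little known function, was at 0.349, 0.363 and 0.467 FPKM in white and 1.33, 1.08 and 1.48 FPKM in black skin, the lowest ratio of the 22 at 3.30.

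The relatives ROBO1 and ROBO4 were above 0.5 FPKM in all white samples. ROBO1 was at 1.63, 0.657 and 0.962 FPKM in white and 3.75, 3.94 and 3.19 FPKM in black skin (log2 fold change -1.42, SE 0.31, limma adjusted p = 0.0387). ROBO4, the Robo receptor of endothelium, was at 3.04, 3.18 and 1.69 FPKM in white and 5.87, 18.7 and 8.71 FPKM in black skin (log2 fold change -1.77), with a limma adjusted p of 0.0513 without and 0.0338 with the pig as a block, so it passed only in the latter. Of the Slit ligands, SLIT2 and SLIT3 had log2 fold changes of -0.97 and -0.98 and did not pass (limma adjusted p = 0.106 and 0.210). In all, 2 of 11 other genes of this list passed, both lower in white skin, with a median of -0.96. The second was PTPRS, a receptor phosphatase that binds synaptic adhesion proteins, at 8.81, 6.23 and 6.69 FPKM in white and 18.4, 23.6 and 32.1 FPKM in black skin (log2 fold change -1.68, SE 0.27, limma adjusted p = 0.0199). PTPRS passed under both scalings and ROBO1 under neither. Without 1 sample, ROBO1 lost its call in all 6 fits and PTPRS in 4, those without white replicates 2 and 3 and black replicates 2 and 3. None of 7 other non-clustered protocadherins passed with limma, and their median was -0.50.

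RASGRF2, which activates Ras in response to calcium, stood at 0.434, 0.379 and 0.382 FPKM in white and 2.19, 1.86 and 3.05 FPKM in black skin. It was the highest of the named intracellular signalling genes in black skin, at 2.36 ± 0.614 FPKM (SD, n = 3). Of 10 other exchange factors for Ras and Rap, RASGRP3 alone passed, at 1.74, 2.00 and 1.41 FPKM in white and 3.80, 7.82 and 5.59 FPKM in black skin (log2 fold change -1.45, SE 0.32, limma adjusted p = 0.0392). The median of the 10 was -0.85, and RASGRP4 passed as well with the pig as a block, lower in white skin (limma adjusted p = 0.0490). EFR3B, which holds a phosphatidylinositol 4-kinase at the plasma membrane, was at 0.294, 0.408 and 0.296 FPKM in white and 1.00, 1.58 and 1.19 FPKM in black skin. Its paralog EFR3A was expressed in both skins, at 6.39, 19.0 and 20.8 FPKM in white and 14.8, 12.1 and 7.21 FPKM in black skin, which overlapped. None of 5 other genes of the kinase complex passed with limma, with a median of -0.22.

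PDE3A, a phosphodiesterase that breaks down cyclic AMP in platelets, heart and vascular smooth muscle, stood at 0.435, 0.211 and 0.393 FPKM in white and 1.05, 1.78 and 2.44 FPKM in black skin. Its ratio within pigs was 2.41, 8.44 and 6.21, lowest in pig 1. The paralog PDE3B, known from adipocytes, was at 0.820, 0.427 and 1.10 FPKM in white and 3.21, 2.32 and 7.34 FPKM in black skin (log2 fold change -1.80, SE 0.43, limma adjusted p = 0.0479). Among 14 other phosphodiesterases, PDE1A, PDE2A and PDE3B passed, all lower in white skin, with a median of -0.82. PDE2A had a log2 fold change of -2.34 (SE 0.39, limma adjusted p = 0.0209), with 1.67, 2.59 and 1.95 FPKM in white and 8.80, 22.7 and 9.30 FPKM in black skin. PDE4D had a log2 fold change of 1.52, with a limma adjusted p of 0.0748 without and 0.0308 with the pig as a block, so it passed only in the latter, higher in white skin. PDE1A and PDE2A passed under both scalings and PDE3B and RASGRP3 under neither. Of the fits that left out 1 sample, PDE3B passed in none, PDE1A and RASGRP3 passed only without black skin replicate 1, and PDE2A only without black skin replicate 1 or 2.

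CYSLTR1, a receptor for the cysteinyl leukotrienes of allergic inflammation, stood at 0.367, 0.290 and 0.406 FPKM in white and 1.14, 1.52 and 1.61 FPKM in black skin. Its paralog CYSLTR2 was at 1.49, 1.54 and 1.98 FPKM in white and 4.17, 3.94 and 5.55 FPKM in black skin (log2 fold change -1.21, SE 0.27, limma adjusted p = 0.0407). Both receptors were thus lower in white skin, CYSLTR2 by the test and CYSLTR1 by the limits that chose it. CYSLTR2 was the single call among 8 other genes of leukotriene synthesis and reception, whose median was -1.0, and with the pig as a block LTC4S, the leukotriene C4 synthase, passed too, lower in white skin (limma adjusted p = 0.0475). The call of CYSLTR2 was lost under both scalings and in all 6 fits that left out 1 sample.

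Of the 3 metabolic enzymes, ENTPD8, which removes phosphates from ATP outside the cell, stood at 0.458, 0.0795 and 0.146 FPKM in white and 1.76, 1.12 and 2.65 FPKM in black skin. Other ENTPD genes and further genes of nucleotide hydrolysis moved in both directions. Of 12, 3 passed higher in white skin and 1 lower, and the median was -0.28. ENTPD5 was at 7.17, 13.5 and 7.82 FPKM in white and 1.65, 1.40 and 1.12 FPKM in black skin (log2 fold change 2.36, SE 0.31, limma adjusted p = 0.0124), opposite to ENTPD8. ENTPD3 and the alkaline phosphatase ALPL were higher in white skin too, with log2 fold changes of 1.83 and 2.53 (limma adjusted p = 0.0350 and 0.0328). ENPP2, which codes for autotaxin, was lower, at -1.60 (limma adjusted p = 0.0384). ENTPD3, ENTPD5 and ALPL passed under both scalings, and ENPP2 lost its call with quantile normalization. ENTPD5 lost its call only without white skin replicate 2, while of these fits ENTPD3 and ENPP2 passed only in that without black skin replicate 1 and ALPL only in that without white skin replicate 3.

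ETNPPL, which breaks down phosphoethanolamine, was at 0.313, 0.442 and 0.323 FPKM in white and 1.60, 1.46 and 2.69 FPKM in black skin. None of 6 other genes of phosphoethanolamine metabolism passed with limma, its paralog PHYKPL included, and their median was -0.14. PADI2, which converts arginine in proteins to citrulline, was at 0.433, 0.462 and 0.358 FPKM in white and 1.82, 1.19 and 1.58 FPKM in black skin. Its neighbours in the same gene cluster, PADI1 and PADI3 of epidermis and hair follicle, varied far more between the black samples. PADI1 was at 0.434, 0 and 0.262 FPKM in white and 18.2, 1.58 and 0.482 FPKM in black skin, and PADI3 reached 36.0 FPKM in black skin replicate 1 and 0.706 FPKM in replicate 3. None of 3 other deiminases passed with limma. KLHL31, a Kelch protein of striated muscle, was at 0.282, 0.364 and 0.0955 FPKM in white and 1.76, 1.13 and 1.04 FPKM in black skin. None of 9 other Kelch-like genes passed with limma, and their median was -0.54.

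Of the 4 mRNAs without a symbol, ENSSSCG00000034760 had the highest level in black skin of all 23, at 2.56, 10.7 and 3.72 FPKM against 0.322, 0.0314 and 0.221 FPKM in white skin. Its ratio within pigs was 7.96, 340 and 16.8, with pig 2 highest in black and lowest in white skin. ENSSSCG00000021899 was even across the black samples, at 2.53, 3.18 and 2.35 FPKM, against 0.430, 0.405 and 0.190 FPKM in white skin. Its locus at chr6:97644177-97948747 of Sscrofa11.1 overlapped that of PIEZO2 in the RefSeq annotation of the same build, chr6:97644115-97945693. PIEZO2 codes for the ion channel of light touch. The overlap is one of position, and the identifier was not renamed on it. ENSSSCG00000035144, listed at 0 in white skin, was at 2.75, 1.72 and 1.40 FPKM in black skin, and ENSSSCG00000034064 was at 0.245, 0.194 and 0.0443 FPKM in white and 1.62, 1.3 and 1.1 FPKM in black skin. Both were taken up here after their values were seen.

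Over the 16 lists of relatives and pathway genes together, 26 of 166 genes (15.7%) passed with limma, 23 of them lower in white skin, and their median log2 fold change was -0.70 against -0.31 over all mRNAs. Over all mRNAs 6.24% passed. The lists were drawn up around the 23 mRNAs with earlier results of these data known, so these shares are a description. With the pig as a block 34 of the 166 passed, 30 of them lower in white skin, against 9.66% of all mRNAs. With upper-quartile scaling 17 of the 166 passed, 14 lower and 3 higher, against 5.72% of all mRNAs. With quantile normalization 11 of the 166 passed, 7 lower and 4 higher, against 4.65% of all mRNAs. Leaving out white skin replicates 1, 2 and 3 in turn left 5, 0 and 3 calls, and leaving out black skin replicates 1, 2 and 3 left 21, 4 and 4. Without white skin replicate 2, where limma called none, 57 of the 166 had an unadjusted p below 0.05, as had 18.1% of all mRNAs.

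**Figure D3:**
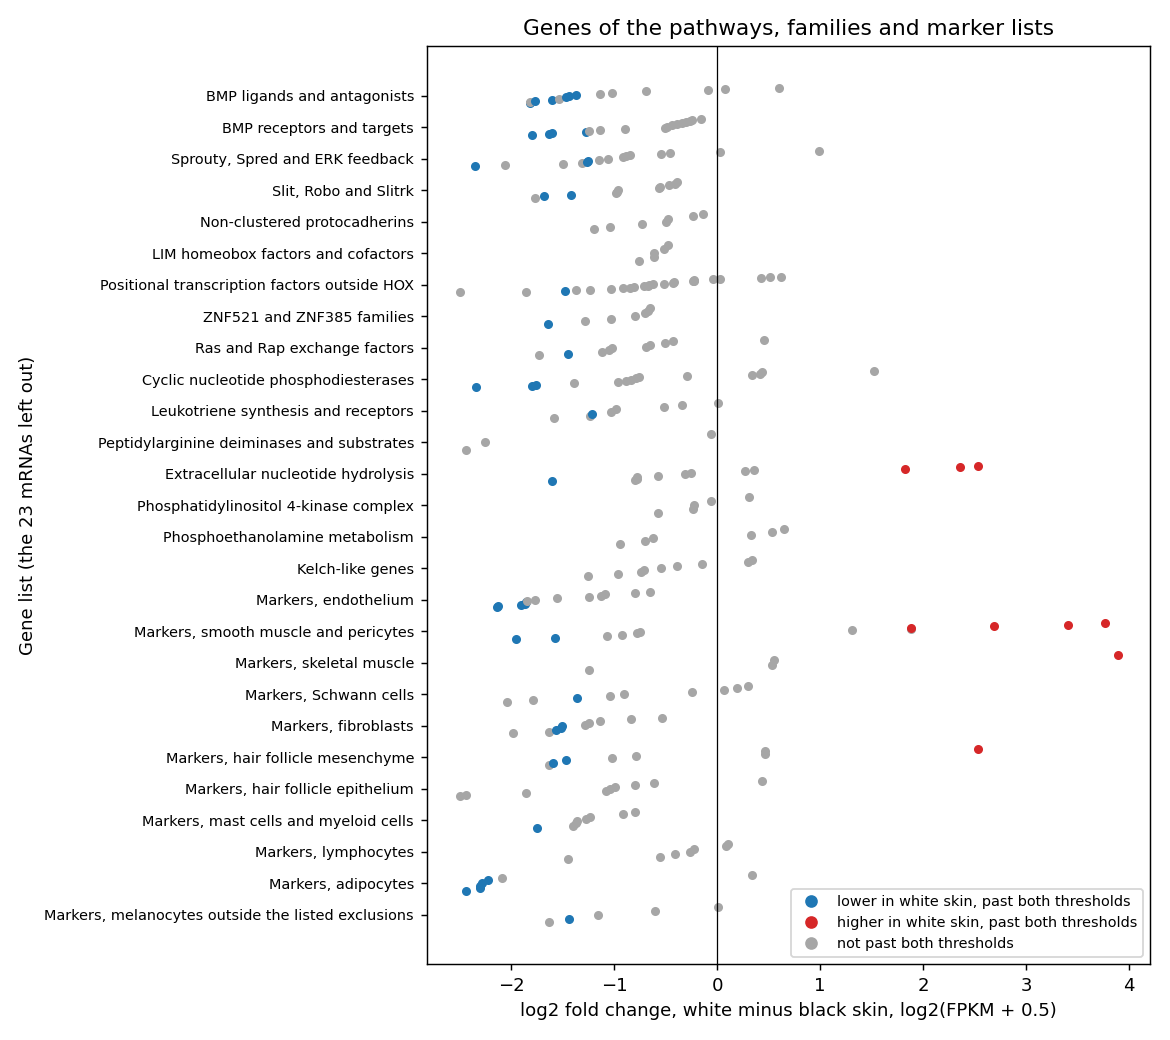
Log2 fold change, white minus black skin, of each gene of the 16 pathway and family lists and the 11 marker lists (1 dot per gene, the 23 mRNAs left out). Genes past both limma thresholds are blue where lower and red where higher in white skin, and the red ones lie in the lists of nucleotide hydrolysis, smooth muscle, skeletal muscle and hair follicle mesenchyme.

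Markers of the cell types in skin moved between the skins beside the 23 mRNAs. Of 13 endothelial markers, 5 passed, all lower in white skin (PECAM1, CDH5, VWF, KDR and PLVAP), and the FPKM of the list summed to 118 to 137 in white and 214 to 583 in black skin. PECAM1 was at 20.8, 18.8 and 25.7 FPKM in white and 54.1, 94.0 and 108 FPKM in black skin (log2 fold change -1.90, SE 0.29, limma adjusted p = 0.0180). The endothelial sum was lowest in pig 1 among the black samples, as were those of smooth muscle, Schwann cells and hair follicle mesenchyme. Black skin of pig 1 was also lowest for 10 of the 23 mRNAs (43.5%). That share was near the 47.0% of other mRNAs at the same level, so nothing is read from it. Of 7 adipocyte markers, 5 passed lower in white skin (ADIPOQ, PLIN1, FABP4, LEP and CIDEC), with sums of 150 to 532 against 823 to 1950 FPKM. Those sums were mostly FABP4, at 242, 96.9 and 409 FPKM in white and 1320, 650 and 1350 FPKM in black skin. PPARG of this list had the opposite sign, 0.34, and its skins overlapped (limma adjusted p = 0.714). Of 10 fibroblast markers, 3 passed lower (DCN, FBLN1 and PDGFRL), with sums of 2310 to 4890 against 6110 to 10400 FPKM. No marker measured was listed at 0 in all 6 samples. Once the pig was a block, 8 of the 13 endothelial, 6 of the 7 adipocyte and 5 of the 10 fibroblast markers passed. Of the endothelial calls KDR was lost with upper-quartile scaling, and PECAM1 alone remained with quantile normalization. Of the adipocyte calls ADIPOQ, FABP4 and PLIN1 were lost with upper-quartile scaling and PLIN1 with quantile normalization, and the 3 fibroblast calls remained under both. The part of these cell types in the levels of the 23 mRNAs was not tested.

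Muscle markers did not share a direction. Of 12 markers of smooth muscle and pericytes, 4 passed higher in white skin (MYH11, CNN1, TAGLN and DES) and the pericyte markers RGS5 and PDGFRB passed lower, and the list summed to 3950 to 6250 FPKM in white and 586 to 1710 FPKM in black skin. DES, the muscle intermediate filament, was at 917, 976 and 1050 FPKM in white and 40.2, 68.1 and 134 FPKM in black skin (log2 fold change 3.77, SE 0.40, limma adjusted p = 0.00820). Of 4 measured skeletal muscle markers of 11 listed, CKM passed, higher in white skin, and the sums were 32.9 to 68.9 against 7.03 to 16.0 FPKM. That sum was mostly CKM, at 45.8, 66.2 and 28.0 FPKM in white and 1.40, 2.28 and 4.66 FPKM in black skin, while TNNI2 was at 2.01, 1.63 and 2.08 FPKM in white and 13.8, 5.15 and 1.77 FPKM in black skin without passing (limma adjusted p = 0.210). With quantile normalization MYH11, TAGLN and RGS5 lost their calls. The part of muscle cells and pericytes in the levels of KLHL31 and PDE3A was not tested.

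Of 9 Schwann cell markers, PMP22 alone passed without the block and 3 passed with it, these lower in white skin. The list summed to 64.7 to 71.7 FPKM in white and 115 to 201 FPKM in black skin. PMP22 alone held 32.7, 36.6 and 44.1 FPKM of this in white and 65.9, 95.8 and 144 FPKM in black skin. NGFR, CDH19 and SCN7A had the opposite sign, at 0.19, 0.30 and 0.07, and their skins overlapped. Of 8 markers of mast cells and myeloid cells, CD68 alone passed without the block and MS4A2, CD163, MRC1 and ITGAM too with it, all lower in white skin, with sums of 13.8 to 32.3 against 42.5 to 110 FPKM. None of 7 lymphocyte markers passed with limma without the block and CD79A passed with it, lower in white skin, with sums of 1.34 to 8.03 against 7.48 to 10.7 FPKM. Of 8 markers of hair follicle mesenchyme, BMP6 and LEPR passed lower and ALPL higher in white skin, with sums of 20.5 to 35.0 against 40.3 to 50.4 FPKM. None of 9 markers of hair follicle epithelium passed with limma, and their sum of 180 FPKM in black skin replicate 1 stood above 79.7 and 65.0 FPKM in replicates 2 and 3 and 51.0 to 64.2 FPKM in white skin. Of 5 melanocyte markers outside those left out by name, KIT passed, lower in white skin, at 0.794, 1.03 and 0.440 FPKM in white and 2.41, 3.24 and 2.90 FPKM in black skin (log2 fold change -1.44, SE 0.29, limma adjusted p = 0.0329). TYR, the first enzyme of melanin synthesis, was listed at 0 in all white samples and stood at 6.93, 0.490 and 0 FPKM in black skin. MITF passed only once the pig was a block, lower in white skin (limma adjusted p = 0.0440). EDNRB and SLC45A2 had log2 fold changes of 0.01 and -0.60 and did not pass (limma adjusted p = 0.981 and 0.455). Both overlapped between the skins. CD68, KIT and LEPR lost their calls with quantile normalization, and CD68 and PMP22 with upper-quartile scaling. Of the 24 marker calls that are not also in a pathway list, DES and CKM held in all 6 fits that left out 1 sample, CIDEC, CNN1 and TAGLN in 3, and the others in 2 or fewer, while 18 remained with upper-quartile scaling and 13 with quantile normalization.

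**Figure D4:**
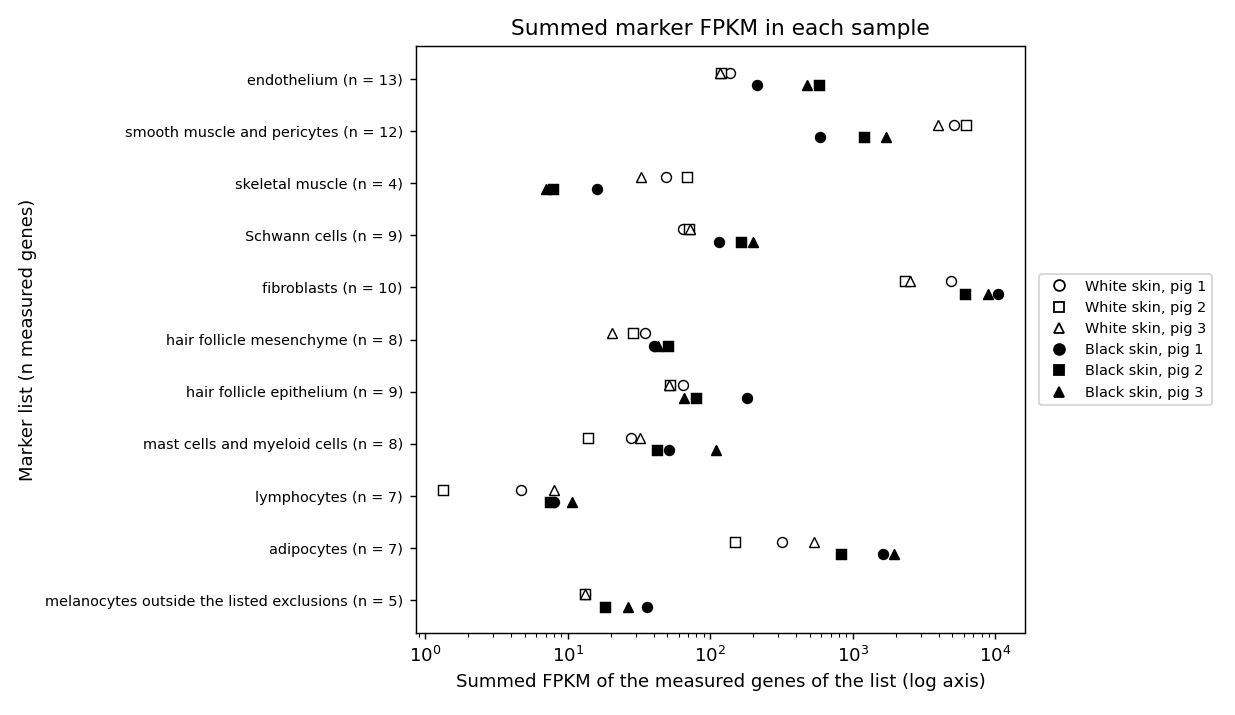
Summed FPKM of the measured genes of each marker list (log axis) in each sample, with open symbols for white and filled symbols for black skin and the shape giving the pig. Smooth and skeletal muscle sums are higher in all 3 white samples, and the sums of the other lists but lymphocytes are higher in all 3 black samples.

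The 23 mRNAs did not peak in the same black sample. Black skin replicate 3 held the highest value for 12 of them (52.2%), replicate 1 for 6 and replicate 2 for 5. Among 3664 other mRNAs with a mean in the same range in black skin, replicate 3 was highest for 49.9%. The highest black value was a median of 1.69 times the lowest, from 1.35 to 5.16 times, and over 2 times for 6 mRNAs, against a median of 1.77 times among the 3664. Of the 4 pigment cell genes left out by name, replicate 1 was highest for PMEL, TYRP1 and MLANA and replicate 3 for MYRIP, with PMEL at 103, 15.2 and 15.2 FPKM in black skin replicates 1, 2 and 3. Among the 23, replicate 1 was highest for ENSSSCG00000035144, SLITRK2, PADI2, ENSSSCG00000034064, ZNF385D and KLHL31. The largest excess among these 6 was that of ENSSSCG00000035144, at 1.97 times its lowest black value, against 6.78 times for PMEL.

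A RefSeq position on Sscrofa11.1 was found for 18 of the 23 mRNAs, on 11 chromosomes. Their genes spanned a median of 60.5 kb, and 7 (38.9%) spanned over 100 kb, the longest being ROBO2 at chr13:177365712-179040027 and ZNF385D at chr13:8234734-9214628. Over 11468 measured genes with a position the median was 29.4 kb and 18.0% spanned over 100 kb. PCDH12 at chr2:143550844-143565028 and SPRY4 at chr2:143877334-143891280 were 312 kb apart. The 3 measured genes between them, RNF14, GNPDA1 and NDFIP1, had log2 fold changes of 0.18, -0.01 and 0.20 and did not pass with limma. RNF14 was at 25.4, 26.6 and 28.8 FPKM in white and 22.1, 20.5 and 29.4 FPKM in black skin, which overlapped. Of the 36 measured genes next to the 18, ROBO1 alone passed with limma (2.78%), 886 kb from ROBO2, and the median of the 36 was -0.35. With the pig as a block, FKBP7 and SESTD1 beside CCDC141 passed as well (limma adjusted p = 0.0472 and 0.0376).

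Long non-coding RNAs (lncRNAs) were measured in the same samples and did not enter the limits. For 20 of the 23 mRNAs a locus was known, and 21 lncRNAs lay within 100 kb of 11 of them. With limma on log2(FPKM + 0.1) over 7566 lncRNAs, none of the 21 passed both thresholds, 1 had an unadjusted p below 0.05, and 1.33% of all lncRNAs passed. The median log2 fold change was -0.44 for the 21 and -0.14 for all lncRNAs. All white values were below all black values for 2 of the 21, against 5.31% of all lncRNAs, and above them for none, against 6.87%. The lncRNA with the lowest p was TCONS_00054916 at chr2:89792502-89794104, within the last part of the RASGRF2 locus at chr2:89525948-89794103. It was at 2.62, 2.04 and 1.90 FPKM in white and 4.54, 8.90 and 5.25 FPKM in black skin, so its skins did not overlap either (log2 fold change -1.42, SE 0.59, limma adjusted p = 0.435). Reads that the lncRNA may share with RASGRF2 at this overlap were not told apart here. TCONS_00069615, at the edge of EFR3B, was listed at 0 in all samples but black skin replicate 2, at 0.325 FPKM. The nearest to PDE3A, TCONS_00081668, was listed at 0 in white skin and stood at 0.130, 0.104 and 0.726 FPKM in black skin, 4.92 kb away. Of the 21, 17 were listed at 0 in at least 1 of the 6 samples.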

How the data were processed

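Poly(A) RNA of 6 skin samples was sequenced as strand-specific libraries. The authors mapped reads to Sscrofa11.1 (Ensembl release 90) with TopHat 2.1.0 per their methods, while the submitters' processing notes list HISAT2 2.0.4, StringTie 1.3.3, Cufflinks 2.2.1 and CASAVA 1.8.2. The 2 deposited tables hold FPKM values that the authors calculated with StringTie. They kept mRNAs above 0.5 FPKM and lncRNAs above 0.1 FPKM in at least 1 sample. No counts are given, so the depth behind a value is unknown and no counting interval was computed. FPKM of the 14900 mRNAs summed to 408598 to 501424 per sample. Above 0.5 FPKM were 13078, 12680 and 13301 mRNAs in the white and 13599, 13695 and 13770 in the black samples. Every white sample thus had fewer mRNAs above this limit than every black sample.

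The 23 mRNAs and the gene lists were chosen with earlier results of these data known. Symbols came from the supplementary lists for 2303 identifiers and from a table of gene names for 12236, 12418 (83.3%) by either. The supplementary columns of the authors' own comparisons, fold changes and p-values, were not used. Each table was fitted whole with limma 3.58.1 (R 4.3.3, empirical Bayes with an intensity trend) after adding a pseudocount of 0.5 to mRNA and 0.1 to lncRNA FPKM and taking log2. A call needed a Benjamini-Hochberg adjusted p under 0.05 together with a log2 fold change over 1 in either direction. The pig was not in the model, as in the study's own test with Cuffdiff. Both skins came from the same pigs, and deviations from the skin means correlated between the samples of each pig (r = 0.208, 0.360 and 0.204 across mRNAs), so the pig was added as a blocking term in a second fit. Python 3.11.15, NumPy 2.4.6 and pandas 2.3.3 served for the rest. The scripts were tested on simulated data.

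The rule for names took all 19 mRNAs with a symbol, of which 1 is not reported here, the 2 unnamed ones highest in black skin, the 2 named genes nearest to each limit on either side, list genes past both thresholds, paralogs, and the nearest lncRNAs. Any other name was chosen after its values were seen. The alternatives were other pseudocounts, filters on mean FPKM, upper-quartile scaling, quantile normalization, the block, other limits and leaving out each sample in turn. Protein and promoter sequences were not used here.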

Additional observations from a re-analysis of the deposited data

How the results depend on the processing

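The 3 pigs limit these results, since a fit that leaves out 1 sample compares 3 samples with 2. The cause of the changes below was not tested. The 23 mRNAs became 3 with a lower limit of 0.25 FPKM (ENSSSCG00000034064 and ENSSSCG00000035144 among them), 2 with an upper limit of 2 FPKM (ENSSSCG00000034760 and ENSSSCG00000021899) and 4 with quantile normalization (CYSLTR1, ENSSSCG00000034760 and ENSSSCG00000035144 among them). Upper-quartile scaling kept 17 of them. Dropping a sample loosens the limits, and gave 29 to 68. The 21 mRNAs of the exchanged limits became 6, 8 and 40 under the same changes, 28 with upper-quartile scaling and 24 to 34 without 1 sample. Of all mRNAs, 930 passed, and 35 to 847 without 1 sample: 219, 35 and 321 without white skin replicates 1, 2 and 3, and 847, 200 and 192 without black skin replicates 1, 2 and 3. With the pig as a block 1439 mRNAs and 243 lncRNAs passed. The list genes rose from 50 to 71 and the 26 relatives and pathway genes to 34. The block kept all 50 calls. Of the 23 mRNAs 19 passed in both fits, beside 3.62% and 6.42% of all mRNAs passing lower in white skin. The limits used this same contrast, so nothing is read from that count. Of the lncRNAs 101 passed, 31 with a pseudocount of 0.01, 18 with a mean FPKM of at least 0.5, and 0 to 5 without 1 sample. No lncRNA within 100 kb passed under any alternative with limma, where 1 or 2 had an unadjusted p below 0.05. Over all 251 list genes, 50 passed, 25 with quantile normalization (23 of the 50 kept) and 2 to 43 without 1 sample. The relatives and pathway genes passed 17 times with upper-quartile scaling, 11 with quantile normalization and 0 to 21 times without 1 sample. None of the 50 calls changed sign. Other pseudocounts kept 49 of the 50.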

Other observations

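The 21 mRNAs that met the limits with the skins exchanged, below 0.5 FPKM in all black samples and at or above 1 FPKM in all white samples, included mRNAs at higher levels than any of the 23. They are named after their values were seen. PKD2L1, an ion channel of sour-sensing and cerebrospinal fluid-contacting cells, was at 6.58, 6.84 and 4.92 FPKM in white and 0.0835, 0.177 and 0.0684 FPKM in black skin. AMER3, of the Wnt regulator family AMER, was at 5.90, 7.91 and 4.63 FPKM in white and 0.293, 0.118 and 0.0513 FPKM in black skin. OGDHL, a relative of the oxoglutarate dehydrogenase of the citric acid cycle, was at 7.73, 20.0 and 6.67 FPKM in white and 0.281, 0.371 and 0.244 FPKM in black skin. GLYATL2, an acyltransferase, varied most between white samples, at 4.45, 14.8 and 651 FPKM, with 0, 0 and 0.291 FPKM in black skin. SCGB1A1, a secretoglobin, was at 33.2, 2.57 and 43.2 FPKM in white and 0.330, 0.494 and 0 FPKM in black skin. CES5A, a carboxylesterase, was listed at 0 in all black samples and stood at 3.50, 3.20 and 1.10 FPKM in white skin. Of the 301 mRNAs below 0.5 FPKM in all black samples, 6.98% met the exchanged limits, and of the 995 below it in all white samples, 3.12% met the limits before names were left out. These values chose the mRNAs and carry no test.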
